A study of Rattus norvegicus with 9 samples.

Results

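The genes of motile cilia were followed in the rat spinal cord after contusion, with and without high-frequency spinal cord stimulation (HF-SCS). They were chosen by name alone. All protein-coding genes whose symbol begins with Dnah, Dnai, Dnaaf, Rsph, Cfap, Drc or Tekt followed by a digit were taken, which gave 88 genes of the 20799 protein-coding symbols in the files. Of these, 12 encode dynein heavy chains (Dnah), 5 dynein intermediate chains (Dnai), 9 dynein arm assembly factors (Dnaaf), 7 radial spoke proteins (Rsph), 4 subunits of the nexin-dynein regulatory complex (Drc), 6 tektins (Tekt) and 45 cilia and flagella associated proteins (Cfap). For Cfap53 and Cfap276, whose symbol stands on 2 rows of a single Ensembl identifier, the row with the higher total was used.

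The mRNA came from whole tissue of the T9 to T11 spinal segments of female wild-type Sprague-Dawley rats, which were 8 weeks old at the start. Tissue was taken at 35 dpi, and the groups Sham, SCI and SCI + SCS had 3 rats each. Sham rats had a laminectomy and no contusion per the study's methods, and are labelled as untreated. SCI rats had a contusion of 150 kdyn at T10 and a connector on the neck, but no electrode. SCI + SCS rats had the same contusion and epidural electrodes, through which a 10 kHz current of 0.12 mA in pulses lasting 30 µs was given for 2 h on each day from 1 dpi. Both injured groups thus shared the contusion, and they differed in the electrodes as well as in the current, so the effects of the implant and of the stimulation cannot be told apart. Rats that carried electrodes without current formed another group of the study, which had no RNA-seq per its methods. The tissue is a contused block that holds many cell types, and in such bulk samples fewer cells of a type and less RNA per cell cannot be told apart.

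Motile cilia beat by sliding the microtubule doublets of the axoneme against each other. The force comes from dynein motors in outer and inner arms, which are built in the cytoplasm with the help of assembly factors. Radial spokes and the nexin-dynein regulatory complex are attached to the doublets and time the motors. Tektins and many CFAP proteins line or dock on the microtubules. In the spinal cord such cilia stand on the ependymal cells that line the central canal. The choroid plexus, the airway, the oviduct and the sperm tail use many of the same genes, and some of the genes chosen here are also transcribed in cells without motile cilia.

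Library totals ran from 62844376 to 88358570 counts, and a level of 3 counts corresponded to between 0.034 and 0.0477 CPM by library total alone. All other CPM are counts scaled by library size, with TMM factors over the 9 libraries. The customary ependymal markers outside the choice by name were present, with 9 of the 12 listed symbols found in the files. Ccdc153, also listed, is another name of Drc12, which is within the choice by name. The markers found had a summed level of 443 to 505 CPM in Sham, 549 to 697 CPM in SCI and 520 to 547 CPM in SCI + SCS. Tppp3 was the most abundant of them, with 194 to 326 CPM, and it is also known from oligodendrocytes. Tmem212, a marker more restricted to ependymal cells, reached 0.863 to 3.96 CPM. Of 9 testis genes, 4 to 6 were at 0 in each library and their sum stayed at or below 0.553 CPM. The 8 choroid plexus genes summed to 10.3 to 32.3 CPM in Sham, 63.6 to 75.2 CPM in SCI and 44.2 to 51.6 CPM in SCI + SCS, with Ttr, the defining marker of that epithelium, between 0.299 and 2.57 CPM in all libraries. Their part in the changes below was not tested.

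Most of these genes were scarce in the uninjured cord. On the FPKM scale, which divides counts by gene length and so allows genes to be compared, the median of the 88 genes in Sham was 0.457, and 57 of them lay under 1. The 5 with the highest levels were Cfap36, which binds the small GTPase ARL3, at 84.9 FPKM, Cfap20dc at 40.2 FPKM, Cfap410, a basal body protein, at 37.8 FPKM, Cfap298, a cytoplasmic factor required for dynein arm assembly, at 24.1 FPKM, and Cfap20, a protein of the inner junction of the doublet, at 20.9 FPKM. Within the other roles the highest levels were 11.8 FPKM for Dnaaf9, 8.21 for Tekt1, 3.68 for Rsph9, 3.29 for Dnai7, 2.88 for Drc3 and 2.52 for Dnah12. The outer arm genes that are best known from primary ciliary dyskinesia were much lower, with mean FPKM of 0.291 for Dnah5, 0.314 for Dnah11, 0.346 for Dnah9, 0.927 for Dnai1 and 0.268 for Dnai2. Because levels were so uneven, Cfap36, Cfap20dc, Dnah12, Cfap410 and Cfap298 held 49.8% of all counts on the 88 genes. Cfap97d1 was at 0 counts in every Sham and SCI library and at 0.0284 CPM in SCI + SCS replicate 2, under the level of 3 counts.

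The RFX transcription factors, which switch on ciliary genes, bind a palindrome called the X-box, and it was searched for in the promoters (250 bases before to 50 after the gene start, RefSeq, build GRCr8). Promoters were matched for 74 of the 88 genes. Its half-sites GTNNCC and GGNAAC, with 2 bases between them, were found on either strand in 8 of them (10.8%), against 1.37% of the 27457 genes in the promoter table. The forkhead core TGTTTAC was found in 5 (6.76%), against 4.13%. Over 16100 protein-coding genes alone the shares were 1.4% for the X-box and 3.2% for the forkhead core. The windows of the 4 genes that hold the X-box letters and passed the test between SCI and Sham (below) are shown. All 4 match the X-box, although 3 of the genes were higher and Cfap20dc lower. Each window is written 5′ to 3′ in the direction of the gene, with the matched letters in capitals. In Cfap298 and Cfap20dc the half-sites read on both strands. In Dnah12 and Dnah2 they read only on the opposite strand, so the capitals there are the reverse complement of the match.
Dnah12, chr16:1944678-1944715, plus strand: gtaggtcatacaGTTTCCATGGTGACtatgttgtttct
Dnah2, chr10:54766046-54766083, minus strand: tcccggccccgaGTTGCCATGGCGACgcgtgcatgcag
Cfap298, chr11:43677588-43677625, minus strand: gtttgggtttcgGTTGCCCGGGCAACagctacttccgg
Cfap20dc, chr15:18661372-18661409, plus strand: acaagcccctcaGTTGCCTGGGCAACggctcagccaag

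The matched letters begin 62, 45, 231 and 178 bases before the start of the respective gene, and each window adds 12 bases on either side. The other 4 promoters with the letters belong to Cfap96, Dnaaf2, Dnaaf5 and Dnaaf6, none of which passed the test. The letters were thus found in 3 of 27 promoters of genes that were higher after SCI, in 1 of 3 of those that were lower and in 4 of 42 of those that were not called. A match of letters is a description of the sequence, not a bound site.

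The comparison of SCI with Sham asked how these genes stood in the chronically injured cord. After SCI, 29 motile cilia genes were higher and 4 were lower than in Sham, out of the 85 that passed the filter on low counts (edgeR's quasi-likelihood test, Benjamini-Hochberg adjusted p under 0.05 over all 17822 rows tested). The higher genes made up 34.1% of those tested, against 24.3% of all rows, and the lower ones 4.71%, against 25% of all rows. With an absolute log2FC above 1 as well, 22 were higher (25.9%, against 13.4% of all rows) and 2 lower (2.35%, against 13.6%). The median log2FC of the 85 genes was 0.62, against 0.02 for all rows, and 69 of them lay above 0 (50.8% of all rows) and 16 below (49.2%). The groups did not overlap for 35 genes in the higher direction (32.6% of all rows) and for 6 in the lower direction (31% of all rows). DESeq2 called 35 of 87 genes higher (22.2% of all rows) and 6 lower (22.1%), the 29 among them.

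**Figure D1:**
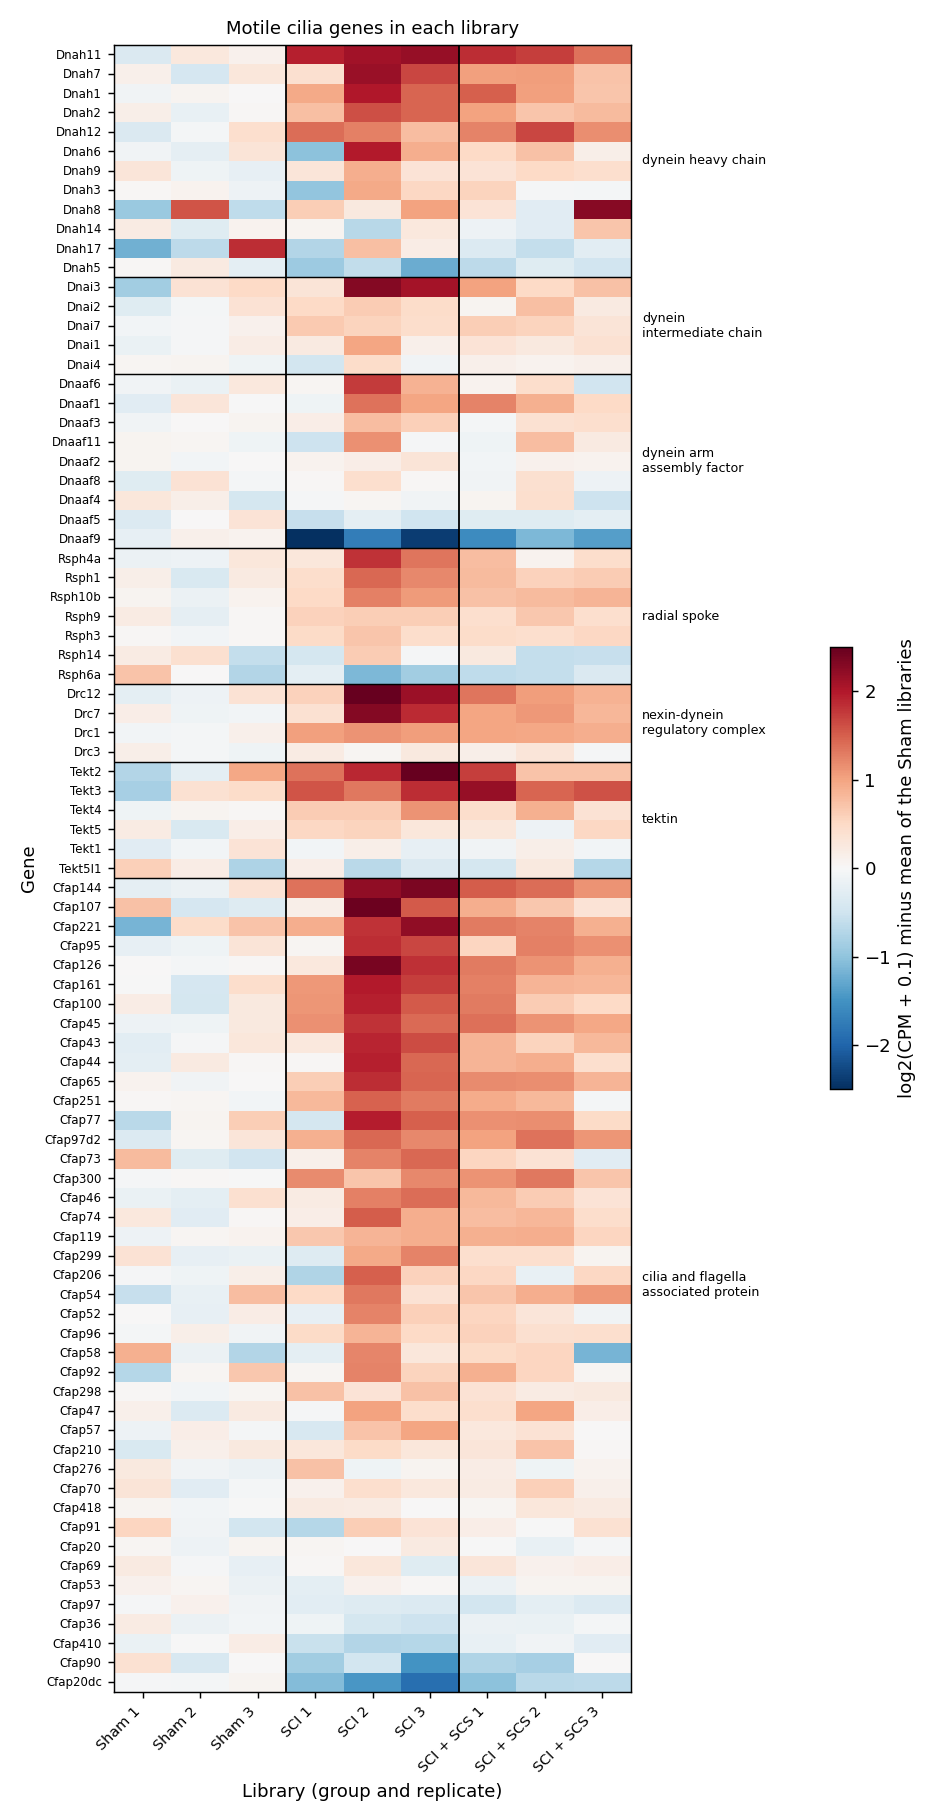
Level of the 85 tested motile cilia genes (rows, by role and then by log2FC of SCI against Sham) in each library (columns), as log2(CPM + 0.1) minus the mean of the Sham libraries. Values beyond the colour scale are drawn in its end colours. Red prevails in SCI replicates 2 and 3 and, more faintly, in the SCI + SCS libraries, while SCI replicate 1 is paler and Dnaaf9 and Cfap20dc are blue in every injured library.

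Of the 12 dynein heavy chains 5 were higher (41.7%, against 24.3% of all rows) and 1 was lower (8.33%, against 25%). Among the outer arm heavy chains, the genes moved in opposite directions. Dnah11, which makes up the outer arms near the base of the cilium, stood at 4.18, 6.46 and 5.82 CPM in Sham, at 21.1, 23.5 and 24.8 CPM in SCI and at 19.7, 18.1 and 13.96 CPM in SCI + SCS. All 6 injured libraries lay above the 3 Sham libraries, and the SCI libraries above those of SCI + SCS. Its fitted level in SCI was 4.16-fold that in Sham (log2FC 2.06 ± 0.19 SE, edgeR adjusted p = 0.00123). Dnah5, the outer arm heavy chain found along the whole cilium, gave 5.41, 6.24 and 4.47 CPM in Sham, 2.80, 3.45 and 2.18 CPM in SCI and 3.35, 4.27 and 3.79 CPM in SCI + SCS. Its SCI libraries were all below its Sham libraries (log2FC -0.95 ± 0.24 SE, edgeR adjusted p = 0.0187). Dnah9, which takes the place of Dnah11 towards the tip, was at 5.33 to 7.55 CPM in Sham and at 7.60 to 11.6 CPM in SCI, a difference that did not pass the test (log2FC 0.52 ± 0.24 SE, edgeR adjusted p = 0.113).

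Inner arm heavy chains supplied the other called dyneins. Dnah12 was the most abundant, with 32.1, 40.1 and 55.2 CPM in Sham, 110, 98.9 and 70.6 CPM in SCI and 97.3, 133 and 92.2 CPM in SCI + SCS, so that no injured library reached down to the Sham range (log2FC 1.12 ± 0.24 SE for SCI against Sham, edgeR adjusted p = 0.0106). Dnah1, Dnah2 and Dnah7 rose with log2FC of 1.55, 1.35 and 1.65. Dnah1 went from 2.23 to 2.499 CPM in Sham to 4.64 to 9.82 CPM in SCI. Dnah6, Dnah3 and Dnah14 of the same arms, with log2FC of 1.09, 0.38 and -0.14, did not pass the test, and neither did Dnah8 and Dnah17, the outer arm chains of sperm.

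Of the 5 intermediate chains, which anchor the motors, only Dnai7 passed the test, being higher (20%, against 24.3% of all rows). It was at 9.998, 10.3 and 11.3 CPM in Sham, 16.6, 15.5 and 14.2 CPM in SCI and 16.3, 15.5 and 13.2 CPM in SCI + SCS, with both injured groups above Sham (SCI against Sham log2FC 0.53 ± 0.12 SE, edgeR adjusted p = 0.0128). Dnai1 and Dnai2, the intermediate chains of the outer arm, had log2FC of 0.48 ± 0.29 and 0.54 ± 0.29 SE (edgeR adjusted p = 0.208 and 0.158). For Dnai1 the SCI libraries were at 3.24, 5.58 and 3.02 CPM and the Sham libraries at 2.47, 2.73 and 3.17 CPM, so the groups overlapped. Dnai3, of an inner arm, missed the threshold with a larger difference (log2FC 1.75 ± 0.63 SE, edgeR adjusted p = 0.0567), since SCI replicate 1 at 1.03 CPM lay within the Sham range of 0.393 to 1.18 CPM while replicates 2 and 3 stood at 4.30 and 3.70 CPM.

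None of the 9 assembly factors with a Dnaaf symbol was called higher (0%, against 24.3% of all rows) and 1 was called lower (11.1%, against 25%). This does not hold for assembly factors under other symbols, since Cfap298 and Zmynd10 were called higher (below). Of the 9, 6 had a log2FC above 0 (50.8% of all rows). The absence of a higher call rested on SCI replicate 1, without which Dnaaf1 and Dnaaf6 were called higher (log2FC 1.25 and 1.73, edgeR adjusted p = 0.0329 and 0.0426). Dnaaf9, which holds the outer arms closed during their transport, fell the most of all 85 genes. It counted 60.7, 76.5 and 74.6 CPM in Sham, 9.52, 21.3 and 13.6 CPM in SCI and 23.5, 31.99 and 26.95 CPM in SCI + SCS. The 3 groups were ordered without overlap, Sham highest and SCI lowest (SCI against Sham log2FC -2.27 ± 0.30 SE, edgeR adjusted p = 0.00224). Dnaaf1 was at 0.535 to 0.852 CPM in Sham and at 0.622, 1.89 and 1.43 CPM in SCI (log2FC 0.91 ± 0.46 SE, edgeR adjusted p = 0.141). Dnaaf6 had a log2FC of 1.35 ± 0.60 SE (edgeR adjusted p = 0.105). Dnaaf3 had one of 0.55 ± 0.26 SE (edgeR adjusted p = 0.12), and the median of the 9 factors was 0.18.

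Radial spoke genes rose in 5 of 7 cases (71.4%, against 24.3% of all rows). Rsph9, a protein of the spoke head, was the most abundant at 9.87, 7.29 and 8.80 CPM in Sham, 12.9, 13.2 and 13.2 CPM in SCI and 11.6, 13.7 and 11.6 CPM in SCI + SCS, and the Sham libraries were the 3 lowest (SCI against Sham log2FC 0.58 ± 0.15 SE, edgeR adjusted p = 0.0189). Rsph1, also of the spoke head, was at 2.89, 1.98 and 3.02 CPM in Sham and at 3.57, 7.18 and 6.11 CPM in SCI, without overlap (log2FC 1.08 ± 0.32 SE, edgeR adjusted p = 0.03). Rsph4a, another protein of the head, had the largest log2FC of the group, 1.31 ± 0.43 SE (edgeR adjusted p = 0.0414), but its SCI replicate 1 at 1.497 CPM did not exceed Sham replicate 3 at 1.498 CPM. Rsph10b and Rsph3 rose with log2FC of 0.97 and 0.53. Rsph14 and Rsph6a, the latter a spoke protein of sperm, had log2FC of 0.06 and -0.88 and were not called.

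The nexin-dynein regulatory complex had the largest median log2FC of any role, 1.44, but over only 4 genes. Of these 3 rose (75%, against 24.3% of all rows), and only Drc1 stayed called in every fit that left out 1 library. Drc1, its scaffold, was measured at 6.19, 6.24 and 7.04 CPM in Sham, 13.3, 14.3 and 13.5 CPM in SCI and 12.9, 12.8 and 12.2 CPM in SCI + SCS. Both injured groups were about level and far from Sham (SCI against Sham 2.08-fold, log2FC 1.06 ± 0.13 SE, edgeR adjusted p = 0.00192). Drc12, also known as Ccdc153 and used as a marker of ependymal cells, was at 1.32, 1.44 and 2.07 CPM in Sham, 2.41, 9.54 and 7.31 CPM in SCI and 4.15, 3.38 and 2.96 CPM in SCI + SCS. Its replicate 1 of SCI was the lowest injured library, although still above Sham (log2FC 1.98 ± 0.51 SE, edgeR adjusted p = 0.0187). Drc7 had a like profile, with 0.647 to 0.802 CPM in Sham and 0.939, 3.85 and 2.80 CPM in SCI (log2FC 1.83 ± 0.52 SE, edgeR adjusted p = 0.0259). Drc3, the most abundant of the complex, did not pass the test (log2FC 0.15 ± 0.15 SE).

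Tektins form filaments inside the doublet wall, and 3 of 6 rose (50%, against 24.3% of all rows). Tekt2 was at 1.51, 2.17 and 5.11 CPM in Sham, at 6.73, 9.72 and 17.4 CPM in SCI and at 8.78, 4.30 and 4.28 CPM in SCI + SCS, with SCI above Sham and SCI + SCS overlapping both (SCI against Sham log2FC 1.93 ± 0.55 SE, edgeR adjusted p = 0.0259). Tekt3 went from 0.330 to 0.949 CPM in Sham to 1.82 to 2.64 CPM in SCI and 2.01 to 3.35 CPM in SCI + SCS (SCI against Sham log2FC 1.58 ± 0.43 SE, edgeR adjusted p = 0.0229), and Tekt4 rose with a log2FC of 0.82. Tekt1, the most abundant, gave 11.4 to 17.6 CPM in Sham and 11.95 to 15.4 CPM in SCI, and its log2FC of -0.07 ± 0.19 SE did not pass the test.

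**Figure D2:**
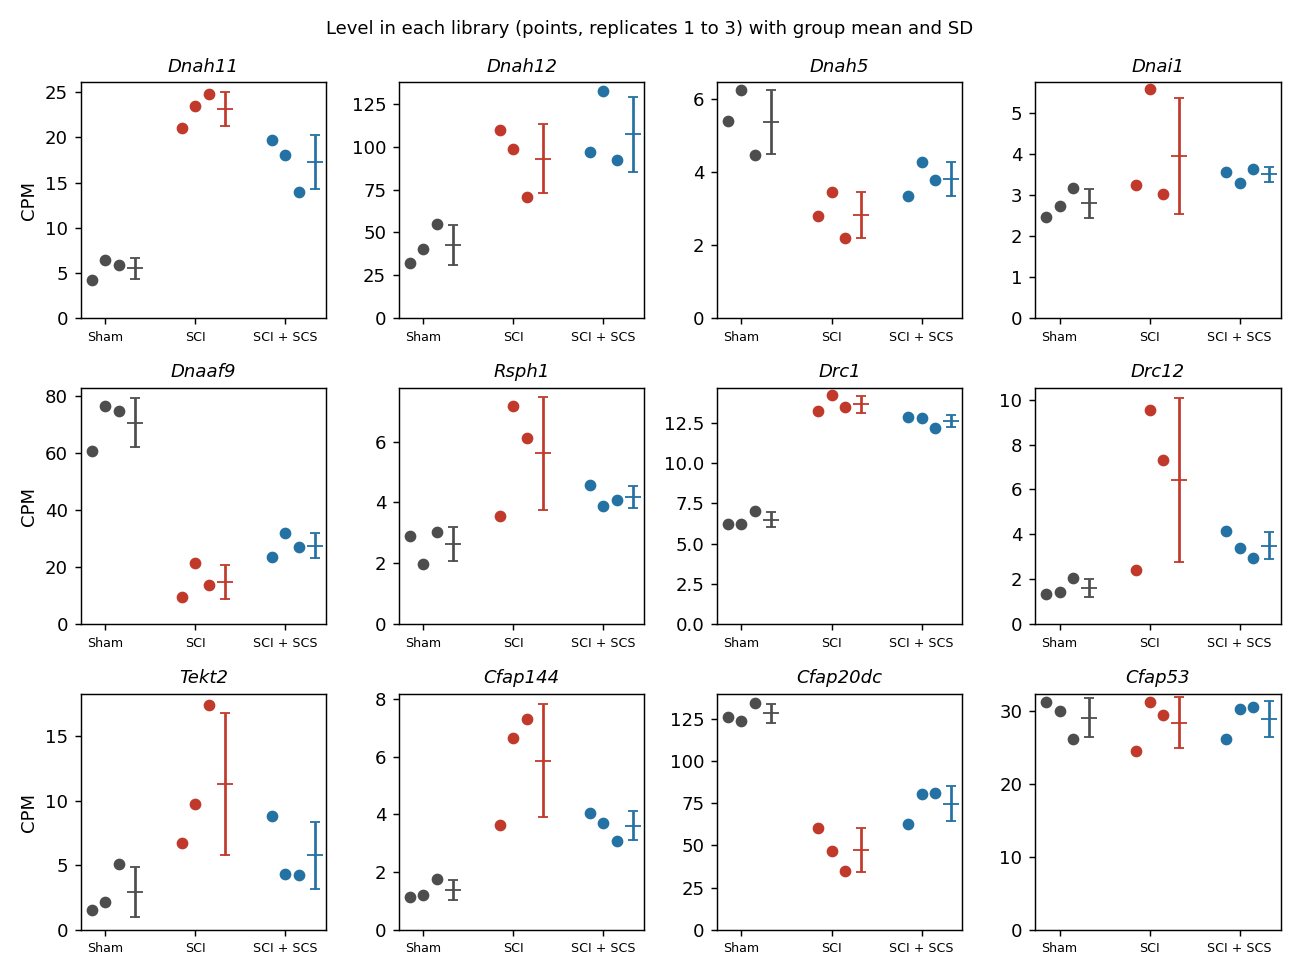
CPM of 12 genes in each library (points, replicates 1 to 3 from left to right), with the mean and SD of each group to the right of its points. Dnah11, Drc1 and Dnah12 are higher in all injured libraries than in Sham, Dnaaf9, Cfap20dc and Dnah5 lower, and the SCI points of Drc12 and Rsph1 are spread by replicate 1.

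Among the 42 CFAP genes tested, 12 rose (28.6%, against 24.3% of all rows) and 2 fell (4.76%, against 25%), so the share of higher calls was near that of all rows. Cfap144, a protein of the inner surface of the doublet, was at 1.15, 1.20 and 1.77 CPM in Sham, 3.63, 6.66 and 7.30 CPM in SCI and 4.06, 3.70 and 3.07 CPM in SCI + SCS, and all injured libraries exceeded Sham. Its 4.20-fold difference between SCI and Sham was the largest among the genes called higher (log2FC 2.07 ± 0.34 SE, edgeR adjusted p = 0.00399). Cfap45, which lies in the lumen of the doublet, was measured at 1.71 to 2.25 CPM in Sham and 4.32 to 6.88 CPM in SCI (log2FC 1.51 ± 0.25 SE, edgeR adjusted p = 0.00421). Cfap126, Cfap161, Cfap100 and Cfap65 rose with log2FC of 1.74, 1.69, 1.55 and 1.42, and Cfap251, Cfap97d2, Cfap300 and Cfap119 with 1.29, 1.19, 1.04 and 0.82.

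Cfap43 and Cfap44 form a complex that tethers an inner arm to the doublet. Cfap43 was at 2.23, 2.64 and 3.27 CPM in Sham, 3.26, 10.4 and 8.50 CPM in SCI and 4.90, 3.999 and 4.76 CPM in SCI + SCS, and SCI replicate 1 fell within the Sham range (log2FC 1.42 ± 0.43 SE, edgeR adjusted p = 0.032). Cfap44 showed the same order at 0.566 to 0.818 CPM in Sham and 0.711, 2.92 and 2.05 CPM in SCI, and with the same log2FC of 1.42 it missed the threshold (edgeR adjusted p = 0.0609). Cfap298 rose from 39.5, 36.8 and 40.0 CPM in Sham to 64.2, 49.1 and 64.2 CPM in SCI and 50.1, 44.5 and 45.6 CPM in SCI + SCS, with no injured library in the Sham range (SCI against Sham log2FC 0.59 ± 0.13 SE, edgeR adjusted p = 0.00964). Cfap53, a docking factor of the outer arm, was level at 26.1 to 31.1 CPM in Sham and 24.4 to 31.2 CPM in SCI (log2FC -0.05 ± 0.13 SE), and its identifier is split over 2 rows.

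Of the 4 genes that fell after SCI, 3 were among the most abundant. Cfap20dc was at 126, 124 and 135 CPM in Sham, 60.6, 46.5 and 34.7 CPM in SCI and 62.6, 80.7 and 81.0 CPM in SCI + SCS, 3 ranges without overlap (SCI against Sham log2FC -1.46 ± 0.20 SE, edgeR adjusted p = 0.00257). Cfap410 was at 72.9, 81.9 and 93.4 CPM in Sham, 55.7, 49.3 and 50.5 CPM in SCI and 72.2, 77.8 and 67.4 CPM in SCI + SCS. Its SCI libraries were below all others (SCI against Sham log2FC -0.69 ± 0.12 SE, edgeR adjusted p = 0.00454). Cfap36, with 146 to 187 CPM in Sham and 113 to 149 CPM in SCI, did not pass the test (log2FC -0.37 ± 0.15 SE, edgeR adjusted p = 0.0848). Among the 10 genes with the highest FPKM in Sham, 1 was higher, 3 were lower and the median log2FC was -0.22. Of the other 75 tested 28 were higher, 1 was lower (Dnah5) and the median was 0.78. Of all rows 24.3% were higher and 25% lower. The Sham libraries set both this ranking and the log2FC, so level and change are not independent of each other.

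Markers of neurons and oligodendrocytes moved in the direction of these abundant genes. All 10 neuronal markers were lower in SCI than in Sham, with a median log2FC of -2.20 and a summed level of 4232 to 9228 CPM in Sham, 637 to 2064 CPM in SCI and 1896 to 3189 CPM in SCI + SCS. Of 8 oligodendrocyte markers 7 were lower, with a summed level of 59240 to 82990 CPM in Sham, 17760 to 33290 CPM in SCI and 30880 to 36620 CPM in SCI + SCS. No marker of either list was at 0 in any library. Of 8 astrocyte markers 3 were lower and 1 higher, with sums of 5790 to 8830 CPM in Sham, 6775 to 10510 CPM in SCI and 10310 to 13390 CPM in SCI + SCS. The part of these cells in the fall of Dnaaf9, Cfap20dc, Cfap410 and Dnah5 was not tested.

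Markers of other cell types moved in the direction of the 29 higher genes. Of 10 microglia and macrophage markers 7 were higher in SCI than in Sham, with a median log2FC of 2.22 and a summed level of 320.2 to 567 CPM in Sham, 1957 to 2596 CPM in SCI and 1757 to 2012 CPM in SCI + SCS. Of 8 markers of fibroblasts and meninges 7 were higher, with a median of 1.85 and sums of 419.8 to 2026 CPM, 3544 to 5498 CPM and 2177 to 3714 CPM in the same order of groups. The sums of both lists were thus without overlap between Sham and either injured group, and none of their markers was at 0 in any library. Of 7 lymphocyte markers tested 5 were higher, with a median of 2.56, and the sums of the 8 listed were 22.1 to 58.3 CPM in Sham, 128 to 191 CPM in SCI and 109.5 to 147 CPM in SCI + SCS, with 0 to 2 of them (Cd3d and Ms4a1) at 0 in each library. Of 8 Schwann cell markers 4 were higher, with sums of 5200 to 7789 CPM in Sham, 9317 to 13560 CPM in SCI and 7298 to 15430 CPM in SCI + SCS. No marker of these 4 lists was called lower. In SCI + SCS against Sham, 0 of the 8 markers of fibroblasts and meninges were called higher. The part of these cells in the higher level of cilia genes was not tested.

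**Figure D3:**
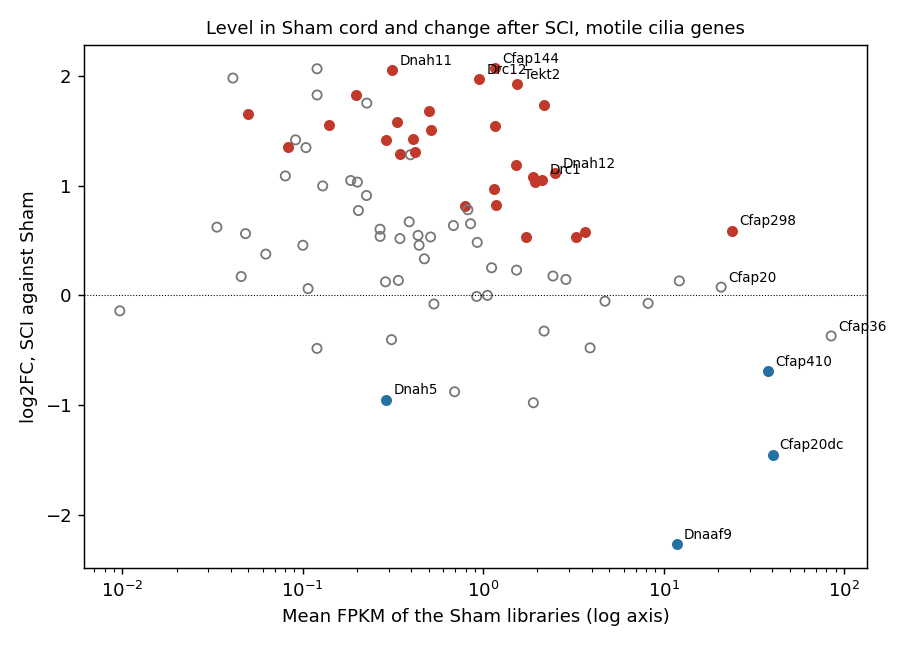
Mean FPKM of the Sham libraries (log axis) against the log2FC of SCI against Sham for the 85 tested genes, filled red where higher, blue where lower and open where not called at an edgeR adjusted p under 0.05. The called lower genes Cfap410, Cfap20dc and Dnaaf9 lie among the genes of highest level, and Dnah5 lies at 0.291 FPKM.

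The summed level of the genes did not separate the groups. The 88 genes together made up 813 to 888 CPM in Sham, 817 to 907 CPM in SCI and 856 to 927 CPM in SCI + SCS, which overlap. Without the 5 genes of highest count the sums were 381 to 411 CPM in Sham, 398 to 544 CPM in SCI and 415 to 447 CPM in SCI + SCS. In this smaller sum the SCI + SCS libraries lay above Sham, while SCI replicate 1 at 398 CPM lay within the Sham range.

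SCI replicate 1 differed from the other SCI libraries over most of these genes. Relative to the mean of the Sham libraries, the median over 85 genes of log2(CPM + 0.1) was 0.20 in SCI replicate 1, 0.96 in replicate 2 and 0.60 in replicate 3, against 0.47, 0.54 and 0.37 in the SCI + SCS libraries. Replicate 1 was the lowest SCI library for 56 of the 85 genes (65.9%), against 36.7% of all rows. It was below the mean of the other 2 for 67 genes, with a median difference of -0.52, whereas the median over all rows was 0.003. This library also had the highest skeletal muscle signal, with 27 muscle genes summing to 5499 CPM, against 247 CPM in SCI replicate 2, 2083 CPM in SCI replicate 3 and 234 to 327 CPM in the Sham and SCI + SCS libraries. Its neuronal markers, at 2064 CPM, were the highest of the SCI libraries. The part of either in the lower level of cilia genes was not tested. Removing muscle and adipocyte genes before normalization kept all 29 higher calls. The muscle genes held only 0.507% of the counts of SCI replicate 1, so their removal could hardly change the scaling. It cannot show whether other RNA came with the muscle.

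**Figure D4:**
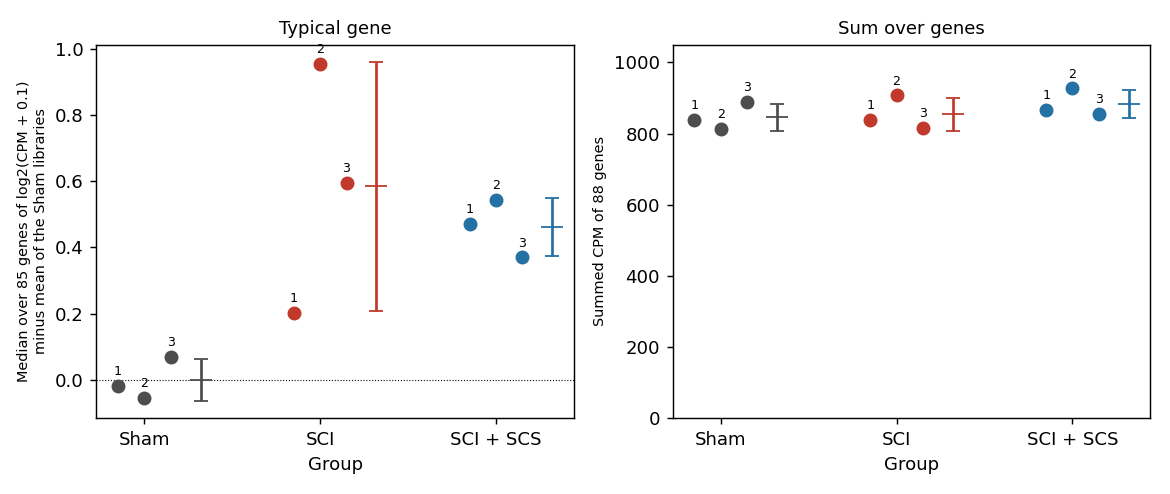
Left, median over 85 motile cilia genes of log2(CPM + 0.1) minus the mean of the Sham libraries; right, summed CPM of all 88 genes; points are libraries numbered by replicate, with the mean and SD of each group beside them. The medians of SCI run from 0.20 to 0.96, around those of SCI + SCS, while the sums of the 3 groups overlap.

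The number of called genes depended on single libraries. Without SCI replicate 1, 41 genes were higher and 6 lower, and the median log2FC was 0.83. All but 1 of the 29 genes were among these 41. Leaving out another library lowered the count of higher genes to 19 without SCI replicate 2, 16 without SCI replicate 3, 19 without Sham replicate 1, 15 without Sham replicate 2 and 23 without Sham replicate 3, and the median then lay between 0.43 and 0.68. A fit with 1 library fewer has less power for any row, and the shares of all rows called in these fits are not given. The lower counts can thus not be read as particular to these genes. No gene called higher had a log2FC below 0 in any of these fits. In all 6 of them 14 genes stayed higher, namely Dnah1, Dnah2, Dnah11, Dnah12, Drc1, Cfap45, Cfap97d2, Cfap100, Cfap119, Cfap144, Cfap161, Cfap251, Cfap298 and Cfap300, and Dnaaf9, Cfap20dc and Cfap410 stayed lower. The calls of Dnah5, Dnah7, Dnai7, Drc7, Drc12, Cfap43, Cfap65, Cfap126, the 5 radial spoke genes and the 3 tektins were each lost in at least 1 of the 6.

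Other ciliary genes, from lists chosen by function, were compared in the same way. Of 104 further axonemal genes tested, 28 were higher after SCI, a share of 26.9% that was near the 24.3% of all rows. A further 5 were lower (4.81%, against 25% of all rows), and the median log2FC was 0.61, against 0.02 for all rows. Zmynd10, a dynein arm assembly factor, was at 7.68 to 7.84 CPM in Sham and 16.6 to 18.3 CPM in SCI (log2FC 1.15 ± 0.11 SE, edgeR adjusted p = 0.00133). Lrrc23, a radial spoke protein, rose with a log2FC of 1.09 ± 0.11 SE and Lrrc71 with 2.66 ± 0.31 SE. The 40 genes of intraflagellar transport and the BBSome, which primary cilia also need, gave 5 higher calls (12.5%, against 24.3% of all rows), 6 lower calls (15%, against 25%) and a median log2FC of 0.04. Among them Ift80 fell by 1.39 on the log2 scale, Kifap3, a subunit of the anterograde motor, fell by 1.33 and Dync2li1, of the retrograde motor, rose with 0.76. The test of a difference between the lists was not made.

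Of 13 regulators of multiciliated cells tested, 2 were higher (15.4%, against 24.3% of all rows) and 1 was lower (7.69%, against 25%). Rfx1, which binds the X-box, rose from 13.4 to 14.03 CPM in Sham to 22.1 to 25.4 CPM in SCI (log2FC 0.80 ± 0.10 SE, edgeR adjusted p = 0.00215), E2f4, a partner of the multicilin complex, rose with a log2FC of 0.59 ± 0.09 SE, and Plk4, the kinase that starts centriole formation, fell by 0.63 on the log2 scale. The other 10 regulators did not pass the test, among them Fank1 (log2FC 0.83 ± 0.31 SE, edgeR adjusted p = 0.067). Of the 9 ependymal markers outside the choice by name, Spint2, Rarres2 and Dynlrb2 rose with log2FC of 1.78, 2.34 and 1.69, and Prom1 fell by 0.82 on the log2 scale. Dynlrb2 was also counted among the further axonemal genes, so the lists are not separate. Tmem212 was at 0.928 to 1.14 CPM in Sham and at 0.863, 3.96 and 3.30 CPM in SCI, again with replicate 1 the lowest (log2FC 1.36 ± 0.54 SE, edgeR adjusted p = 0.0771).

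The comparison of SCI + SCS with SCI asked whether stimulation changed these genes in the injured cord. No motile cilia gene was called in either direction among the 85 tested (edgeR's quasi-likelihood test, Benjamini-Hochberg adjusted p under 0.05), where 1 of all 17663 rows was called higher (0.00566%) and 0 lower (0%). At an unadjusted p under 0.05 there were 3 higher genes (3.53%, against 13.3% of all rows) and 4 lower (4.71%, against 10.9%). The median log2FC was -0.17, against -0.01 for all rows, with 59 genes below 0 (50.7% of all rows) and 26 above (49.3%). The groups did not overlap for 3 genes in each direction (15.7% of all rows higher, 13.9% lower). This median rested on the spread of the SCI libraries, being -0.30 without SCI replicate 1 and -0.03 without SCI replicate 2. In simulated data for this comparison edgeR recovered 85.5% of genes changed 4-fold. In the real data, the 25 skeletal muscle genes tested had a median log2FC of -4.67 and 0 were called. The simulation thus does not set a limit for these data, and differences above 4-fold may also have gone undetected.

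The 3 higher genes at an unadjusted p under 0.05 were among the 4 that had fallen after SCI. Cfap410 was higher in each SCI + SCS library than in any SCI library, as given above (log2FC 0.49 ± 0.09 SE, edgeR adjusted p = 0.0774). Dnaaf9 and Cfap20dc had the same order of groups, with log2FC of 0.90 ± 0.28 SE and 0.67 ± 0.21 SE (edgeR adjusted p = 0.125 and 0.124). DESeq2 called these 3 genes (adjusted p = 0.00052, 0.0186 and 0.0258) and no other member, at a background of 6.59% of all rows higher and 5.15% lower. The 4 lower genes were Dnah11 (log2FC -0.41 ± 0.15 SE), Cfap298 (-0.33 ± 0.12 SE), Cfap144 (-0.69 ± 0.28 SE) and Cfap100 (-0.72 ± 0.29 SE), with edgeR adjusted p between 0.15 and 0.197 and no call by DESeq2. These 7 genes were singled out after their values were seen. The SCI libraries enter both this comparison and that of SCI with Sham, so that opposite signs in the 2 comparisons are not independent of each other.

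Genes with a wide scatter in SCI had large standard errors against SCI + SCS. Drc12 at 2.96 to 4.15 CPM in SCI + SCS had a log2FC of -0.87 ± 0.46 SE against SCI, Rsph4a at 1.31 to 2.16 CPM one of -0.83 ± 0.42 SE, and Tekt2 one of -0.96 ± 0.42 SE, with edgeR adjusted p of 0.297, 0.27 and 0.224. The groups overlapped for each of them. For Drc1, Rsph9 and Dnai7, whose SCI libraries agreed closely, the log2FC were -0.10 ± 0.10, -0.09 ± 0.12 and -0.03 ± 0.12 SE.

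**Figure D5:**
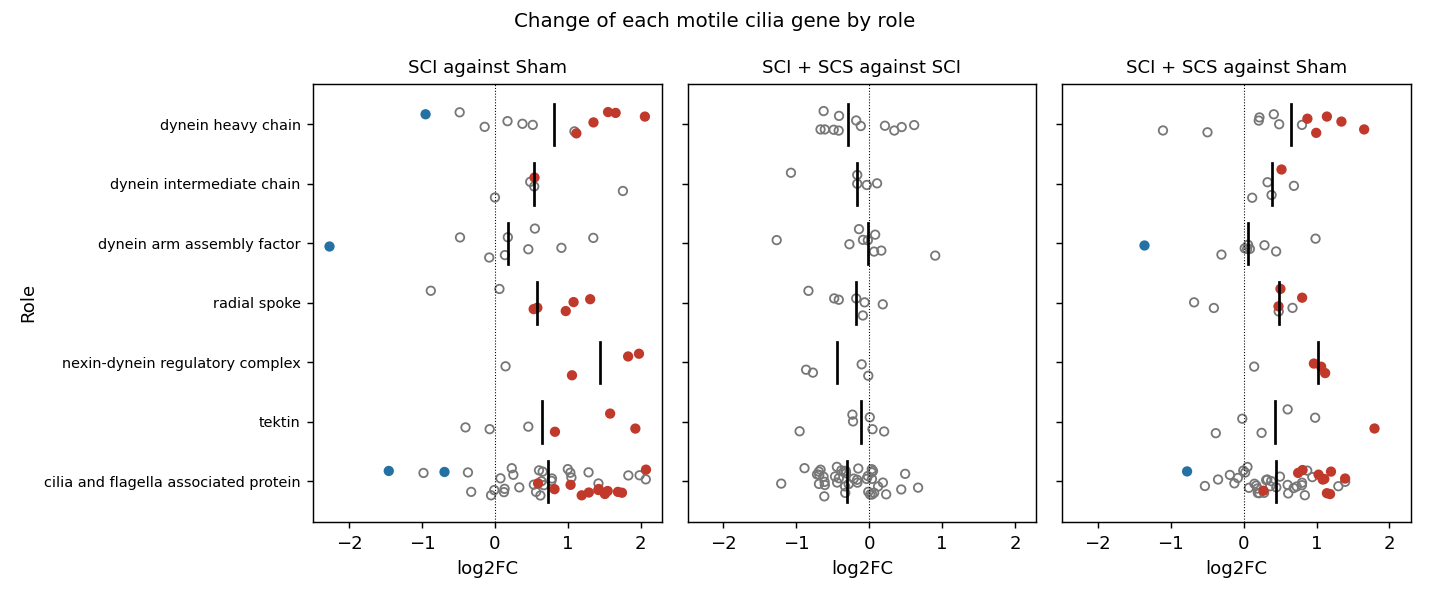
log2FC of each tested motile cilia gene (points, spread vertically within its role for legibility) in the 3 comparisons, filled red where higher and blue where lower at an edgeR adjusted p under 0.05 and open otherwise; black bars are medians of the role. Filled points are found in both comparisons with Sham and none in SCI + SCS against SCI.

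The comparison of SCI + SCS with Sham gave the state of the genes in the stimulated injured cord. Out of 86 genes tested, 23 were higher (26.7%, against 16.2% of all 17640 rows) and 2 were lower (2.33%, against 16.2%) by edgeR's quasi-likelihood test at a Benjamini-Hochberg adjusted p under 0.05. With an absolute log2FC above 1 as well, the counts were 13 (15.1%, against 6.28%) and 1 (1.16%, against 5.44%). The median log2FC was 0.45, against 0.01 for all rows, with 71 genes above 0 (50.5% of all rows) and 15 below (49.5%). The groups did not overlap for 35 genes in the higher direction (27.2% of all rows) and 4 in the lower (26% of all rows). DESeq2 called 28 of 88 genes higher (16.1% of all rows) and 4 lower (17%), the 23 among them. By role, 10 of 43 CFAP genes (23.3%), 5 of 12 heavy chains (41.7%) and 3 of 7 radial spoke genes (42.9%) were higher, against 16.2% of all rows. So were 3 of 4 genes of the regulatory complex (75%), 1 of 6 tektins (16.7%), 1 of 5 intermediate chains (20%) and 0 of 9 assembly factors with a Dnaaf symbol (0%).

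Tekt3 had the largest difference, 3.47-fold (log2FC 1.79 ± 0.44 SE, edgeR adjusted p = 0.0253), followed by Dnah11 with 3.15-fold (log2FC 1.65 ± 0.21 SE, edgeR adjusted p = 0.00506). Among the genes called higher, Cfap144, Dnah12 and Cfap45 came next with log2FC of 1.39, 1.34 and 1.20. Dnaaf9 and Cfap20dc were the 2 lower genes, with log2FC of -1.36 ± 0.15 SE and -0.77 ± 0.12 SE (edgeR adjusted p = 0.00372 and 0.00741). Dnah5 had a log2FC of -0.50 ± 0.19 SE and Cfap410 one of -0.19 ± 0.11 SE, and neither passed the test (edgeR adjusted p = 0.0848 and 0.231). Rsph1, at 4.57, 3.89 and 4.07 CPM, was above its 3 Sham libraries, but narrowly missed the threshold (log2FC 0.67 ± 0.21 SE, edgeR adjusted p = 0.0539).

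This comparison rested on individual libraries as well. The 23 higher genes became 11 without SCI + SCS replicate 1, 10 without replicate 2, 15 without replicate 3, 18 without Sham replicate 1, 9 without Sham replicate 2 and 24 without Sham replicate 3, while the median log2FC stayed between 0.40 and 0.50. Here too the shares of all rows called are not given, and fewer libraries lower the power for any row. In all 6 fits 9 genes stayed higher (Dnah11, Dnah12, Drc1, Rsph10b, Cfap45, Cfap65, Cfap126, Cfap144 and Cfap300), and Dnaaf9 and Cfap20dc stayed lower. The comparison shares the Sham libraries with that of SCI against Sham, and the 2 sets of values are therefore given side by side without a count of their agreement.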

How the data were processed

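RNA-seq of the spinal cord was used, from 9 rats in 3 groups, with groups and replicate numbers from the labels, which name 1 sequencing batch. Per the labels mRNA was captured with oligo(dT) beads, and the submitters' processing notes name fastp 0.23.2, HISAT2 2.2.1 and the build mRatBN7.2. The counting program is not given in the sources used here. The authors deposited raw, unnormalized gene counts in 30507 rows, of which 22777 had a count. The authors also deposited FPKM, which scale counts by gene length and library total and were used here only for levels. Whether the counting used strand is not given, so overlapping genes may share reads.

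Groups were compared over their 6 libraries with edgeR 4.0.16 under R 4.3.3 (TMM, quasi-likelihood test, default filter on low counts, no covariates, Benjamini-Hochberg adjustment over all rows tested). The SE is the log2FC divided by the square root of F. DESeq2 1.42.0 was an alternative (the study's methods name another version of it), beside other filters and scalings, all 9 libraries in one fit, a replicate block, summed rows of an identifier, removal of muscle and adipocyte genes and leaving out each library. In simulated data with 200 genes changed 4-fold, edgeR recovered 75%, 85.5% and 80% of them for SCI against Sham, SCI + SCS against SCI and SCI + SCS against Sham. With 3 against 3 libraries no exact permutation p can fall under 0.1. Floors of 3 counts cover counting error only. No 2 library columns were identical.

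The genes and all lists were chosen with earlier results of these data known. Genes were named if they are textbook ciliary genes, among the 5 called with the largest log2FC in each direction, the most abundant of their role, against the prevailing direction or at 0 in a whole group. Further names complete the counts of a role. A gene that the choice by name includes is not reported here.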

Additional observations from a re-analysis of the deposited data

How the results depend on the processing

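Over 14 alternatives, no call of a motile cilia gene reversed. Of 3569 refitted log2FC of 86 genes, 3358 kept their side of the threshold, 151 lost a call and 60 gained one, and 133 of those uncalled changed sign. The 14 genes called higher after SCI in every fit that left out a library were also called in all other alternatives. Of the 9 such genes in SCI + SCS against Sham, 2 (Dnah11 and Drc1) were called in all alternatives. With all 9 libraries in one fit, 7 members were lower and 8 intraflagellar transport and BBSome genes were higher in SCI against Sham. DESeq2 called 3 members higher in SCI + SCS against SCI, with 1 transport gene and 1 axonemal gene higher and 2 axonemal genes lower, and 4 members lower in SCI + SCS against Sham. Without a filter on low counts, 1 axonemal gene was lower in SCI + SCS against Sham. Without the 5 members of highest count, the mean summed CPM was 392.4 in Sham, 475.6 in SCI and 433.7 in SCI + SCS, by construction of the sum.

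The replicate numbers do not mark shared animals or batches, and the mean correlation of same-numbered deviations was 0.13, -0.12 and -0.21 for SCI against Sham, SCI + SCS against SCI and SCI + SCS against Sham. With the replicate number as a block, SCI against Sham gave 24 members higher and 5 lower and 0 ciliogenesis regulators lower, and SCI + SCS against SCI gave 0 members. SCI + SCS against Sham under the block gave 3 members higher, 2 of them with an absolute log2FC above 1, and 0 regulators higher, 0 transport genes higher and 1 lower, and 4 axonemal genes higher and 0 lower.

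When each library was left out in turn, higher members in SCI against Sham ranged from 15 to 41, and from 12 to 31 with an absolute log2FC above 1, and lower members from 3 to 6 and from 2 to 4. Lower regulators were 0 in each of these fits (Plk4 lost its call), transport genes ranged from 3 to 5 higher and 4 to 6 lower, and axonemal genes from 14 to 39 higher and 2 to 5 lower. In SCI + SCS against SCI, 0 to 1 axonemal genes were lower. In SCI + SCS against Sham, higher members ranged from 9 to 24, and from 7 to 17 with an absolute log2FC above 1, lower members from 2 to 4, higher regulators from 1 to 3, transport genes from 1 to 5 higher and 2 to 4 lower, and axonemal genes from 8 to 31 higher and 0 to 1 lower. The cause of these shifts was not tested. Shares of all rows called are not given for the fits with a block, over all 9 libraries or without 1 library. A shift particular to these genes can thus not be told from one over all rows. With 57 of 88 members under 1 FPKM in Sham, counting noise and 3 rats per group limit what can be seen.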

Other observations

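The outer arm heavy chains of the sperm tail, Dnah8 and Dnah17, were low and uneven in the cord, and were singled out after their values were seen. Dnah17 stood at 4.85 CPM in Sham replicate 3 and between 0.503 and 2.23 CPM in the other 8 libraries. Dnah8 was highest in SCI + SCS replicate 3 at 3.17 CPM and in Sham replicate 2 at 1.91 CPM, and lay between 0.252 and 1.24 CPM elsewhere. Leaving out 1 library changed the sign of the log2FC of SCI against Sham for both, between -0.94 and 1.17 for Dnah17 and between -0.25 and 1.67 for Dnah8.

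Lrrc71, an axonemal gene outside the choice by name, was at 3.46, 5.62 and 8.44 CPM in Sham, 37.3, 34.7 and 40.1 CPM in SCI and 25.6, 12.3 and 12.5 CPM in SCI + SCS. The 3 groups did not overlap, and SCI + SCS was below SCI with a log2FC of -1.15 ± 0.29 SE, which did not pass edgeR's quasi-likelihood test (Benjamini-Hochberg adjusted p = 0.0942). Unlike most of the genes chosen by name, its SCI replicate 1 was not the lowest SCI library.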
